A study of Mus musculus with 24 samples.

Results

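The subject here is a set of 40 genes for lysosomal proteins other than the cathepsins, measured in the hippocampus of 12 mice. The members were listed by name as lysosomal enzymes, membrane proteins, proton pump subunits and a regulator. All 40 of them were found among the 55291 gene rows of the count table, and all 40 passed the filter on low counts. The mice formed 3 groups of 4 animals: untreated wild-type (WT) mice, 5xFAD mice that received vehicle, and 5xFAD mice treated with MS1262. The 5xFAD line carries mutant human transgenes of familial Alzheimer's disease, driven by a neuronal promoter, and deposits amyloid. MS1262 is described by the submitters as an inhibitor of the methyltransferase G9a. WT animals received no vehicle, so that genotype and vehicle cannot be told apart in any comparison with WT. The labels give the WT animals as age matched, with no age, sex, dose or length of treatment. From each animal, poly(A) RNA was divided into an input library and a library of RNA bound by an antibody to N6-methyladenosine (m6A), a methyl mark on mRNA. The design asked which transcripts differed in this mark, and both parts also give the members' expression.

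Lysosomes are acidic organelles in which many kinds of hydrolase break down glycans, lipids and proteins. A vacuolar proton pump acidifies them, heavily glycosylated membrane proteins such as LAMP1 and LAMP2 line them, and NPC1 and NPC2 pass cholesterol out of them. The transcription factor TFEB binds a palindromic promoter element known as CLEAR, whose core is the E-box CACGTG, and through it raises many lysosomal genes together. In brain, microglia are rich in lysosomes, and many of the genes here cause storage disorders or neurodegeneration when mutated.

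The members' promoters are shown because this element is what ties the set together in textbook accounts. RefSeq windows of GRCm38.p6, from 250 bases before to 50 bases after an annotated start, were at hand for 36 of the 40 members. The letters CACGTG, which read the same on both strands, stood in the windows of 11 of those 36 members, or 30.6%, against 8.09% of all 27025 genes with a window. The members were Arsa, Atp6v0d1, Atp6v1a, Cd164, Cln3, Gaa, Gla, Glb1, Lamp1, Mcoln1 and Naglu. Each of the 11 also held the longer TCACGTG or its reverse complement, which overlaps with the shorter motif and was found in 4.29% of all genes. Printed next are the 250 bases before the start, 5′ to 3′ on the gene's strand, with CACGTG in capitals. Lamp1 (chr8:13158911-13159160, plus strand) has 4 copies, beginning 61, 45, 28 and 15 bases before the start, and Mcoln1 (chr8:3500269-3500518, plus strand), the gene of a lysosomal calcium channel, has 2. Cln3 (chr7:126583237-126583486, minus strand), the gene of a lysosomal membrane protein mutated in Batten disease, has 2 at 1 of its 2 annotated starts. Grn (chr11:102430257-102430506, plus strand) and Npc2 (chr12:84773113-84773362, minus strand) hold none, and are shown because they were the members with the smallest p in the comparison of 5xFAD with WT.
Lamp1: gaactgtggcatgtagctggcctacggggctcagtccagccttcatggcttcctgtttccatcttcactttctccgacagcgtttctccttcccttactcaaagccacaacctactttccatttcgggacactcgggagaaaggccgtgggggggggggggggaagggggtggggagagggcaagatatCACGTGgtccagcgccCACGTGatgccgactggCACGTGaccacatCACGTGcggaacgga
Mcoln1: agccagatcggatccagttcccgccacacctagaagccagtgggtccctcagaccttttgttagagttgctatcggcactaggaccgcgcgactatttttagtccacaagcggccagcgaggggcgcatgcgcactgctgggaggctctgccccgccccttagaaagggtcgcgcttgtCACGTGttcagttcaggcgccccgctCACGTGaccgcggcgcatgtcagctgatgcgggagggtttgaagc
Cln3: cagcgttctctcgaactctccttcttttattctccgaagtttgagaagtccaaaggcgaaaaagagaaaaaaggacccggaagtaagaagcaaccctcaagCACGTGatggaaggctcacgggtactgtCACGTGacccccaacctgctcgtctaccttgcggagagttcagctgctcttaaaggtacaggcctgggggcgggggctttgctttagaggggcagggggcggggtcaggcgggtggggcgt
Grn: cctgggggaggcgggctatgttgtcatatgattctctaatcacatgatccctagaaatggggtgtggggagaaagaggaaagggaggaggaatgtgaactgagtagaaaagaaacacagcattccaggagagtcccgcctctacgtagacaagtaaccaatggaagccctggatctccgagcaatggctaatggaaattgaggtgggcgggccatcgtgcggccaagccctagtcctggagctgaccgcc
Npc2: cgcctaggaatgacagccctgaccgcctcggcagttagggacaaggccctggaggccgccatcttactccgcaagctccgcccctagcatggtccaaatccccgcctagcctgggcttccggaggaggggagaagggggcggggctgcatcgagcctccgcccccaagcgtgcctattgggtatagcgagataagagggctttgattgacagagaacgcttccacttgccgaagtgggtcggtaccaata
A match of letters is a description of the window and not a measured binding site.

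The libraries held 3.98 to 48.6 M estimated counts (M, megacounts), the smallest being the IP of vehicle animal 4. Vehicle animal 3 stood apart from the other 11 animals in its input: Ttr, a marker of choroid plexus, reached 7041 CPM (counts scaled to library size) against 30.3 to 748 CPM, and Xist, which females express, was at 1.31 CPM against 21.5 to 48.2 CPM. The ratio of IP to input in vehicle animal 4 was the highest or lowest of the 12 animals for 23 of the 40 members, against 2 to 12 members in each other animal. For the members, results that rest on either animal are given with and without it. The hippocampal neuron markers were present in every input library, with a summed level of 7816 to 10170 CPM. RNA was amplified without molecular identifiers, and the intervals given here cover the spread between animals only. The tissue was bulk hippocampus, so that more cells of a type and more RNA per cell cannot be told apart.

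Per transcript length, 4 of the 5 proton pump genes were the most abundant members. Over the 12 inputs, Atp6v0c, which encodes the proteolipid ring subunit of the pump, averaged 853 ± 112 TPM (abundance scaled by transcript length, SD, n = 12), followed by the accessory subunit gene Atp6ap1 at 312 ± 37.0 TPM and Atp6v1a, the catalytic subunit, at 277 ± 29.3 TPM. Atp6v1b2, a second subunit of the catalytic head, was at 173 ± 18.9 TPM. The ranges of Atp6ap1 and Atp6v1a overlapped, while Atp6v0c lay above and Atp6v1b2 below both, without overlap with its upper neighbour. Laptm4a, at 133 ± 14.6 TPM, and Ppt1, at 97.5 ± 20.9 TPM, came next by their means. Lamp2 was at 85.4 ± 15.3 TPM and Lamp1 at 78.8 ± 8.34 TPM, its range inside that of Lamp2. Atp6v0d1, the remaining pump gene, had a mean between these 2, at 80.9 ± 10.1 TPM. Most hydrolases were far lower: Tpp1, the tripeptidyl peptidase of neuronal ceroid lipofuscinosis, stood at 41.9 ± 8.90 TPM, Hexa, the alpha subunit of beta-hexosaminidase, at 15.0 ± 3.69 TPM, and Idua, the iduronidase of Hurler syndrome, at 1.78 ± 0.417 TPM. Tfeb itself was listed at 0.173 ± 0.264 TPM and had reads in 9 of 12 inputs, at most 25 estimated counts in any of them. A gap to the next lower member was seen only below Atp6v0c, Atp6v1a and Idua; all other neighbours in the order overlapped in their ranges.

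In 5xFAD mice given vehicle, 5 of the 40 members were higher than in WT and 0 were lower. The 5 were Npc2 and Npc1, which export cholesterol from the lysosome, Grn, which encodes progranulin, Laptm5, a lysosomal membrane protein of immune cells, and Man2b1, the lysosomal alpha-mannosidase. Across all 17693 genes tested with edgeR's quasi-likelihood test at a Benjamini-Hochberg adjusted p below 0.05, 1.57% were called, 1.06% higher and 0.514% lower. Of the 40 members, 36 had a positive log2 fold change with a median of 0.22, where the median of all genes was 0.01. On TPM, where all genes shifted by a median of -0.09 or -0.14 depending on the pseudocount, 23 of 40 were positive. The input groups did not overlap for 11 members, all higher in 5xFAD, against 4.08% of all genes higher and 3% lower.

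Npc2, a soluble cholesterol carrier, measured 79.7, 76.8, 72.5 and 73.7 CPM in the 4 WT inputs, 112.6, 118.8, 126.9 and 123.8 CPM in the 4 vehicle inputs, and 94.8, 114.4, 99.3 and 111.6 CPM in the 4 MS1262 inputs. Every 5xFAD animal lay above every WT animal. Its fold change from WT to vehicle was 1.59 (log2 0.67 ± 0.08 SE, edgeR adjusted p = 0.00113). Npc1, the membrane protein that takes cholesterol over from NPC2, measured 35.0, 31.9, 27.1 and 31.5 CPM in WT, 46.1, 46.1, 44.7 and 37.5 CPM in vehicle, and 40.8, 43.0, 39.6 and 45.5 CPM in MS1262 animals. These groups did not overlap with WT either, and the fold change to vehicle was 1.39 (log2 0.47 ± 0.11 SE, edgeR adjusted p = 0.0395). Npc1 overlaps Rmc1 in the annotation, and reads shared by the 2 genes cannot be told apart from these counts.

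Grn, the gene of a secreted protein that reaches lysosomes with prosaposin and whose loss causes frontotemporal dementia or lipofuscinosis, measured 26.4, 21.8, 25.2 and 26.4 CPM in WT and 54.1, 64.1, 31.5 and 44.5 CPM in vehicle animals. All vehicle values exceeded all WT values, and the lowest was that of animal 3. The fold change was 1.95 (log2 0.96 ± 0.17 SE, edgeR adjusted p = 0.0111), and without animal 3 log2 was 1.11 (adjusted p = 0.000509). MS1262 animals had 46.2, 57.9, 52.8 and 48.7 CPM, within the range of the vehicle animals.

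Laptm5 had the greatest fold change of the members that passed, 2.64 (log2 1.40 ± 0.29 SE, edgeR adjusted p = 0.0260). Its input values were 15.8, 12.5, 8.8 and 11.4 CPM in WT, 26.5, 34.8, 14.7 and 51.9 CPM in vehicle, and 25.2, 27.0, 30.7 and 31.7 CPM in MS1262 animals. Vehicle animal 3 lay inside the WT range, the other vehicle animals and all MS1262 animals above it. Man2b1 measured 20.5, 22.8, 14.4 and 14.9 CPM in WT, 31.9, 47.3, 22.3 and 39.2 CPM in vehicle, and 32.4, 42.4, 31.6 and 34.2 CPM in MS1262 animals. Here too vehicle animal 3 overlapped with WT, and the fold change to vehicle was 1.93 (log2 0.95 ± 0.21 SE, edgeR adjusted p = 0.0383). Without vehicle animal 3 the adjusted p was 0.00105 for Laptm5 and 0.00532 for Man2b1, Npc1 no longer passed (adjusted p = 0.0833), and Gusb, the beta-glucuronidase gene, passed, so that 5 members were again called. Npc2 and Grn passed with any single animal left out; Laptm5, Man2b1 and Npc1 lost their call in 5, 9 and 11 of those 12 fits, and without WT animal 3 or WT animal 4 only 2 members were called, as without vehicle animal 2. Leaving out WT animal 1 or 2, vehicle animal 1, or MS1262 animal 2, 3 or 4 gave 3. The MS1262 animals are in neither group here and enter only through the shared fit of all inputs. On TPM, Npc2 passed with either pseudocount and also without the filter on low counts. Laptm5 passed with either pseudocount, but not without the filter. Grn, Man2b1 and Npc1 passed on none of these scales.

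**Figure D1:**
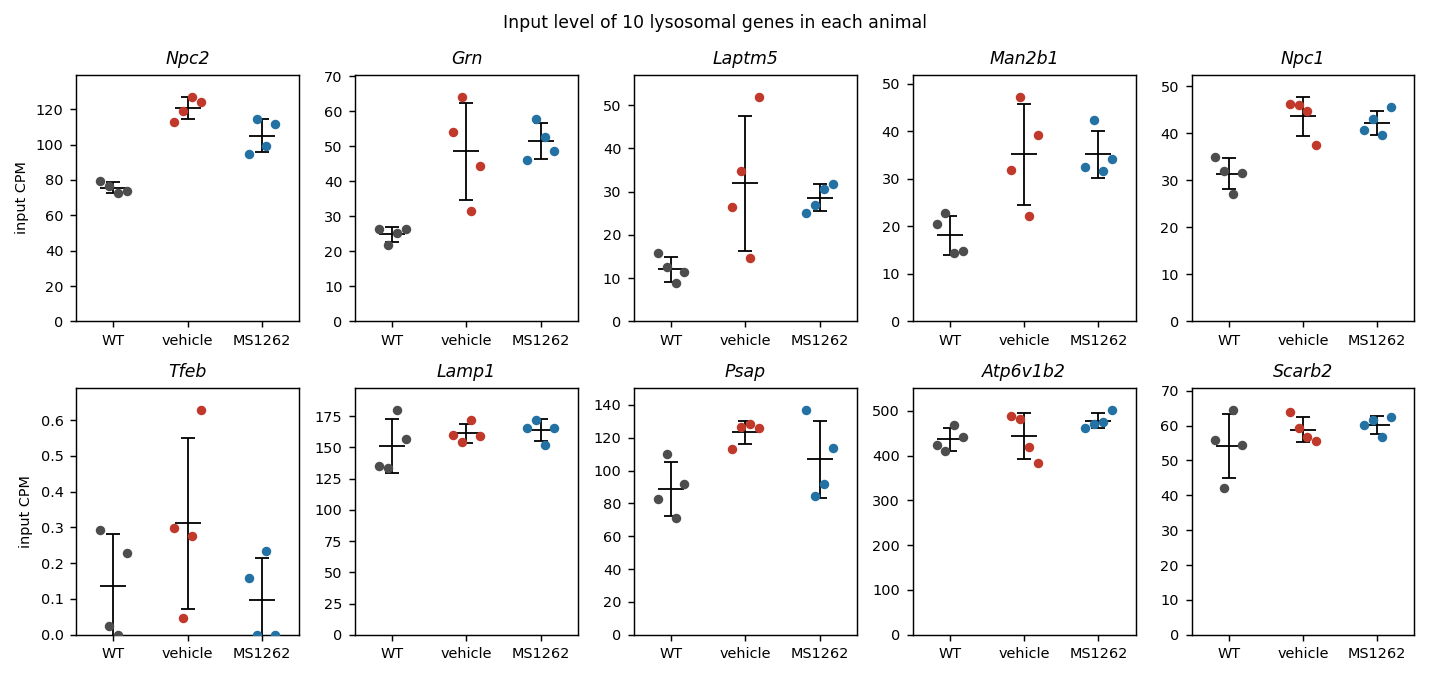
Input level in CPM (y axis, from 0, its scale set for each gene) of the 10 members described animal by animal, with 1 point per mouse and the mean ± SD (n = 4) in black for WT, 5xFAD vehicle and 5xFAD MS1262 (x axis). All 5xFAD points of Npc2, Grn and Npc1 lie above all WT points, whereas Laptm5 and Man2b1 each have a vehicle animal, animal 3, among the WT values; Lamp1, Atp6v1b2 and Scarb2 overlap between the groups.

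Among the other members, several came near the threshold. Lamp2, the receptor of chaperone-mediated autophagy, had a log2 fold change of 0.44 ± 0.11 SE (edgeR adjusted p = 0.0552), and Lipa, the acid lipase that frees cholesterol from its esters, 0.50 ± 0.13 SE (adjusted p = 0.0722). Gusb, Tpp1 and Glb1, the beta-galactosidase gene, had 0.88, 0.45 and 0.57, with adjusted p of 0.0893, 0.0895 and 0.0945. All 5 of these passed under DESeq2, which called 10 members and 610 of all genes, against 278 genes with edgeR. Without vehicle animal 3, Lamp2 was at log2 0.32 (edgeR adjusted p = 0.151), Lipa at 0.35 (0.176) and Glb1 at 0.56 (0.148), while Gusb passed as given above. Without vehicle animal 4, Lamp2 passed (edgeR adjusted p = 0.0416), and Lipa and Glb1 did not (0.0828 and 0.0952).

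By role, 1 of 11 glycan hydrolases passed, with log2 fold changes from -0.11 for Gaa, the acid alpha-glucosidase of Pompe disease, to 0.95 for Man2b1. None of the 4 sulfatases (Galns, Ids, Arsa, Arsb) passed, at 0.03 to 0.60, and none of the 6 lipid enzymes and activators, at -0.27 for Ppt1, a palmitoyl-protein thioesterase, to 0.50. Psap, which encodes the precursor of the saposins, measured 82.6, 109.9, 70.9 and 91.8 CPM in WT and 112.8, 126.2, 128.2 and 125.7 CPM in vehicle inputs. These 2 groups did not overlap, yet the adjusted p was 0.167 (log2 0.47 ± 0.15 SE). In MS1262 animals Psap measured 136.7, 84.7, 92.1 and 113.8 CPM, across both ranges.

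All 9 membrane protein genes had a positive log2 fold change, of which 1, Laptm5, passed. Lamp1, with its 4 E-box cores, measured 134.9, 133.5, 179.6 and 156.4 CPM in WT, 159.6, 154.2, 171.7 and 159.2 CPM in vehicle, and 165.4, 172.3, 151.9 and 165.4 CPM in MS1262 animals. The 3 groups overlapped (vehicle over WT log2 0.09 ± 0.10 SE, adjusted p = 0.761). Scarb2, which encodes the LIMP-2 receptor that carries glucocerebrosidase to lysosomes, measured 55.8, 42.0, 64.4 and 54.5 CPM in WT, 63.8, 59.4, 56.7 and 55.7 CPM in vehicle, and 60.3, 61.6, 56.7 and 62.5 CPM in MS1262 animals. It overlapped as well, with log2 0.12 ± 0.11 SE (adjusted p = 0.722). Of the 11 members with CACGTG in a window, 0 were called in this comparison, where 1.57% of all genes were, so that the count says nothing particular about them. Among the 11, Glb1 and Naglu were higher in vehicle without overlap with WT, and Glb1 passed with DESeq2 (adjusted p = 0.0267).

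The proton pump genes moved least. None of the 5 passed, and their log2 fold changes lay between -0.04 for Atp6v1a and 0.09 for Atp6v0d1. Atp6v1b2 measured 424.3, 409.4, 468.6 and 442.2 CPM in WT, 489.0, 482.3, 419.7 and 383.9 CPM in vehicle, and 462.8, 471.0, 475.1 and 501.4 CPM in MS1262 animals. The WT values lay inside the vehicle range, and the 95% interval of the log2 difference was -0.17 to 0.22. Tfeb was at 0 to 0.292 CPM in WT, 0.0469 to 0.627 CPM in vehicle and 0 to 0.233 CPM in MS1262 inputs, and the 95% interval of the log2 difference between vehicle and WT was -1.17 to 3.48 (adjusted p = 0.726).

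Microglial genes were higher in the same 5xFAD inputs. The summed level of 8 microglia markers was 229 to 251 CPM in WT, 256 to 486 CPM in vehicle and 319 to 375 CPM in MS1262 animals, with none of the 8 at 0 in any input. Vehicle animal 3 had the lowest sum of the 8 5xFAD animals, as it had the lowest Laptm5, Grn and Man2b1. Its Npc2, in contrast, was the highest of all the mice, and its Npc1 lay within the range of the other vehicle animals. Of these markers 3 of 8 passed in vehicle over WT (median log2 1.03), and 5 of 8 markers of disease-associated microglia did (median 2.08), of which only Itgax was at 0 in an input. The 8 astrocyte markers had a median of 0.28 and 1 passed. Summed choroid plexus markers were 68.5 to 835 CPM in WT and 81.2 to 7638 CPM in vehicle animals, with medians of 90.5 and 102 CPM. Summed meningeal fibroblast markers were 339 to 600 CPM in WT and 343 to 1050 CPM in vehicle animals. The part of these cell types in the members' changes was not tested.

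Other lysosomal genes came from lists drawn up with earlier results of these data known. Of 21 other hydrolases tested, 3 passed, all higher in vehicle than in WT, with the smallest p for Scpep1, a serine carboxypeptidase (log2 0.49, edgeR adjusted p = 0.0169). Of 19 other membrane proteins 2 passed. These were Cd68, a macrophage glycoprotein, which went from 17.4 ± 1.58 CPM in WT to 71.3 ± 36.1 CPM in vehicle animals (SD, n = 4, adjusted p = 0.00307), and the tetraspanin Cd63 (log2 0.73, adjusted p = 0.00234). Of 15 other proton pump genes, 1 passed and 11 had a negative log2 fold change. The 1 was Atp6v0d2, the form of subunit d found in macrophages and osteoclasts, with 0 to 1 estimated counts in the WT inputs and 5 to 84 in the vehicle inputs (adjusted p = 0.0104). Atp6v0d1, the common form and a member here, was at log2 0.09. None of 8 other regulators passed. Of 12 cathepsins tested, 8 passed, all higher, with a median log2 of 0.83 and Ctsd, the aspartic protease, at the smallest p (log2 1.43, adjusted p = 0.000794).

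**Figure D2:**
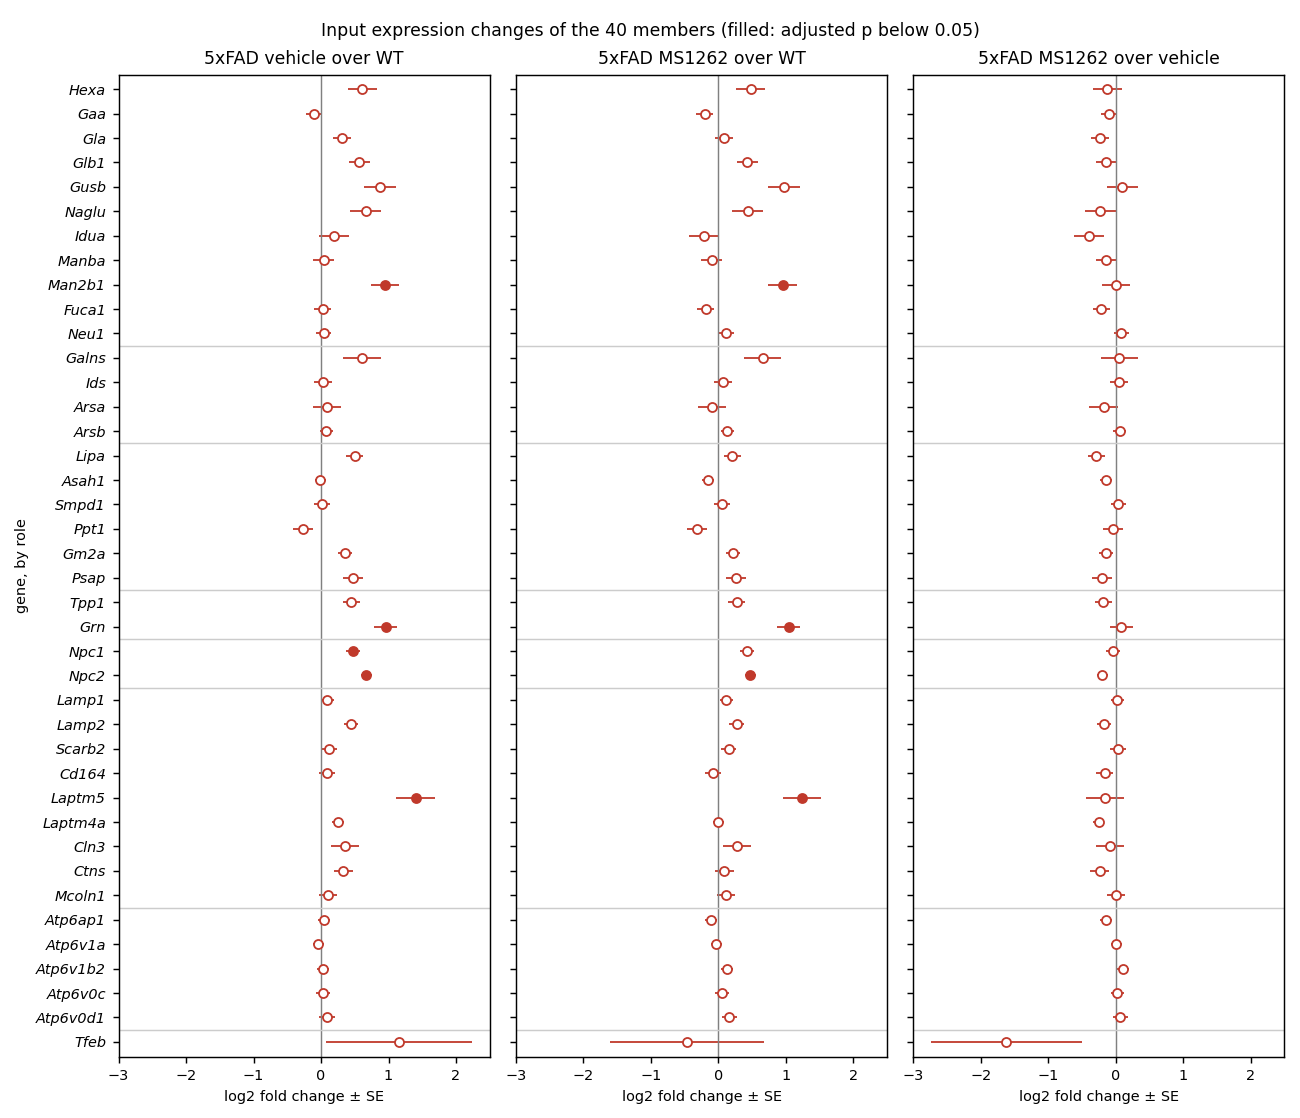
Log2 fold change ± SE of input expression (x axis) for each of the 40 members (y axis, in blocks by role: glycan hydrolases, sulfatases, lipid enzymes and activators, TPP1 and progranulin, cholesterol export, membrane, proton pump, TFEB), in 3 comparisons of 4 animals against 4. Filled points passed at an adjusted p below 0.05: 5 for vehicle over WT, 4 for MS1262 over WT and 0 for MS1262 over vehicle; the proton pump block lies near 0 in every panel and Tfeb has by far the widest bars.

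Against WT, the MS1262 animals showed 4 members higher and 0 lower, with 1.3% of all genes called, 0.91% higher and 0.39% lower. The 4 were Grn (fold 2.06, log2 1.04 ± 0.17 SE, edgeR adjusted p = 0.00688), Npc2 (1.39, 0.47 ± 0.08, 0.0122), Man2b1 (1.93, 0.95 ± 0.21, 0.0380) and Laptm5 (2.36, 1.24 ± 0.29, 0.0487). Npc1 had log2 0.43 ± 0.11 SE and an adjusted p of 0.0651. Both comparisons share the WT animals, so the second is no independent repeat of the first. On TPM none of the 4 passed, and leaving out single animals, Npc2 and Grn kept their call each time while Laptm5 and Man2b1 lost theirs in 10 and 8 of 12 fits. Only those 2 were called without WT animal 1, 3 or 4, vehicle animal 1, or any of the 4 MS1262 animals. Vehicle animals enter this comparison only through the shared fit of all inputs. The input groups did not overlap for 7 members, all higher (5.23% of all genes higher, 4.9% lower). Among the other lysosomal lists, 2 of 21 hydrolases, 3 of 19 membrane proteins (Cd68, Cd63 and Slc11a1) and Atp6v0d2 were higher, and Atp6v1c1, a pump subunit, was lower (log2 -0.48, adjusted p = 0.0242).

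Between MS1262 and vehicle in 5xFAD mice, 0 of 40 members and 0 of 17693 genes passed (0% called) with edgeR, as with DESeq2. At an unadjusted p below 0.05 there were 1003 genes, among them 3 members, all lower under MS1262: Laptm4a, a membrane protein related to Laptm5 (log2 -0.25 ± 0.09 SE), Npc2 (-0.20 ± 0.08) and Lipa (-0.29 ± 0.13), each with an adjusted p of 0.848 or 0.863. Laptm4a measured 216.8, 219.9, 271.4 and 222.0 CPM in vehicle and 191.6, 206.1, 186.2 and 196.3 CPM in MS1262 animals. It was the only member whose 2 groups did not overlap in this comparison, against 1.85% of all genes lower and 1.55% higher. Of the 40 members, 26 had a negative log2 fold change, with a median of -0.13 (all genes -0.01); on TPM 20 of 40 were negative. Markers of other tissues and cell types had negative log2 fold changes in the same comparison, none past the adjusted threshold: all 7 choroid plexus markers had an unadjusted p below 0.05 (median log2 -2.80), as had 4 of 8 meningeal fibroblast markers (median -0.92), 3 of 5 erythroid markers (median -1.18) and 3 of 8 endothelial markers (median -0.43). Summed choroid plexus markers were 81.2 to 7638 CPM in vehicle and 51.8 to 201 CPM in MS1262 animals, and meningeal markers 343 to 1050 CPM and 299 to 545 CPM. The choroid plexus sums had medians of 102 CPM in vehicle and 73.4 CPM in MS1262 animals. Ttr was at 7041 CPM in vehicle animal 3 but at 55.4 to 69.7 CPM in the other vehicle animals. In MS1262 animals Ttr was at 30.3 to 159 CPM. The marker fold changes above include vehicle animal 3. Vehicle animal 3 had the highest Laptm4a, and without it none of the 40 members had an unadjusted p below 0.05, with Laptm4a at log2 -0.17, Npc2 at -0.17 and Lipa at -0.15. The part of these tissues in the members' values was not tested. The 95% interval of the difference was -0.28 to 0.44 for Grn, -0.76 to 0.44 for Laptm5, -0.44 to 0.44 for Man2b1 and -0.27 to 0.18 for Npc1, on the log2 scale. Missing the threshold does not show that the drug left these levels as they were. None of the other lysosomal lists had a gene that passed; their smallest adjusted p was 0.848, which Cd63 and Ctso had.

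The IP libraries were compared with the inputs of the same animals to see which members were bound more or less than the average transcript. On counts scaled to a common average, 22 members were higher and 7 lower in IP, where 55.9% of all 18300 genes were called, 28.2% higher and 27.7% lower (edgeR's quasi-likelihood test, adjusted p below 0.05). This ratio is relative to the other genes, is read per transcript since the protocol names no fragmentation, and says nothing of the total amount of m6A. On TPM the split was 36 higher and at most 1 lower, with the median of all genes itself shifted by 0.36 or 0.55. The glycan hydrolases had 7 of 11 higher and 0 lower, the lipid enzymes and activators 5 of 6 higher and 0 lower, and Tpp1 and Grn were both higher. The membrane proteins were divided, with 3 higher and 3 lower of 9, as were the pump genes, with 2 higher and 3 lower of 5. Npc1 and Npc2 did not pass in either direction. Without vehicle animal 4, 27 members were higher and 8 lower. That animal was far below the other 11 for Ids, at a log2 ratio of -1.28 against -0.24 to 0.29, and for Lamp2, at -1.09 against -0.05 to 0.32, and above them for Mcoln1, at 0.69 against -0.71 to 0.00. Its part in the members' ratios beyond these counts was not tested.

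Psap had the highest IP over input ratio of the members, 5.82-fold (log2 2.54 ± 0.10 SE, edgeR adjusted p = 1.23e-11), and only 0.448% of all genes had a higher one. Its log2 ratio was 2.23, 2.72, 3.24 and 2.88 in WT, 2.53, 2.46, 1.92 and 2.70 in vehicle, and 1.90, 2.74, 2.62 and 2.53 in MS1262 animals. Every animal was thus well above 0, with the 3 groups overlapping, and its mean level was 43.7 TPM in input and 395 TPM in IP. Behind Psap and Tfeb came Man2b1 at 2.47-fold (log2 1.30 ± 0.06 SE, adjusted p = 7.08e-11). Its log2 ratio was 1.25, 0.96, 1.74 and 1.40 in WT, 1.47, 1.31, 1.39 and 1.20 in vehicle, and 1.12, 1.20, 1.29 and 1.30 in MS1262 animals. Tfeb had log2 1.84 ± 0.51 SE (adjusted p = 0.00505), from at most 25 estimated counts in an input and 31 in an IP library, and its per-animal log2 ratio ran from -0.15 to 3.46. Idua, Hexa and Laptm5 had 1.16, 1.09 and 0.98.

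At the other end was Lamp1, 1.74-fold lower in IP than in input (log2 -0.80 ± 0.07 SE, edgeR adjusted p = 2.36e-08), with a lower ratio in 7.46% of all genes. Its log2 ratio was -0.64, -0.77, -1.25 and -0.98 in WT, -0.91, -0.55, -0.79 and -0.27 in vehicle, and -0.77, -0.94, -0.96 and -0.74 in MS1262 animals. All 12 animals were below 0. Atp6v1b2 had log2 -0.63 ± 0.05 SE (adjusted p = 3.86e-08), with -0.54, -0.55, -0.61 and -0.48 in WT, -0.75, -0.81, -0.69 and -0.23 in vehicle, and -0.63, -0.74, -0.80 and -0.68 in MS1262 animals. Scarb2 had log2 -0.52 ± 0.06 SE (adjusted p = 5.91e-07), with -0.47, -0.13, -0.86 and -0.45 in WT, -0.61, -0.48, -0.55 and -0.60 in vehicle, and -0.63, -0.51, -0.52 and -0.51 in MS1262 animals. On TPM Atp6v1b2 and Scarb2 were slightly positive, at 0.02 and 0.10, and did not pass. Both lay below the medians of all genes of 0.36 or 0.55. Lamp1 was at -0.16 and passed only narrowly on log2(TPM + 1) (limma adjusted p = 0.0498). It did not pass on log2(TPM + 0.1) (0.0504) or on log2(TPM + 1) with no filter (0.0874). The sign was the same in all 12 animals for 12 members that were higher (13.3% of all genes) and for these 3 that were lower (15.8%). Lamp2 had log2 0.04 ± 0.09 SE (adjusted p = 0.70), and without vehicle animal 4, 0.14 ± 0.03 SE (adjusted p = 0.00168). The ratios of the 2 LAMP genes were not tested against each other.

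**Figure D3:**
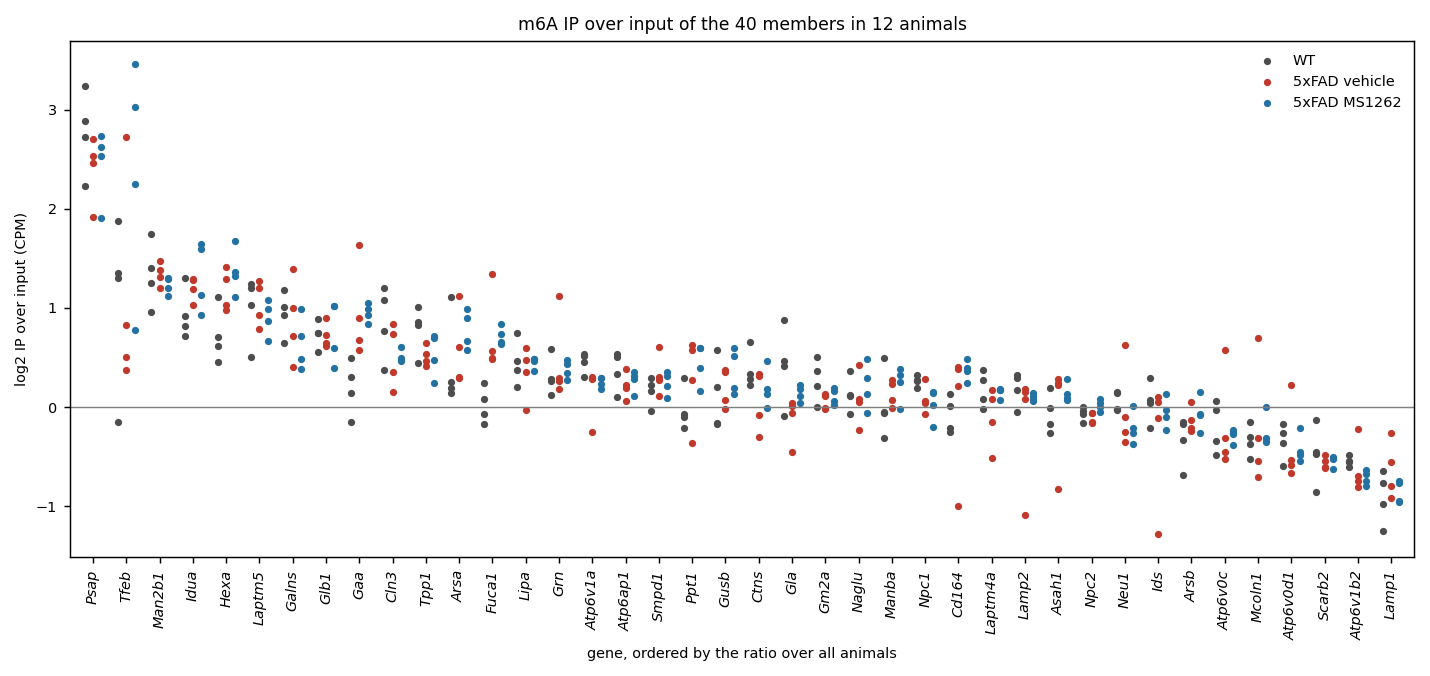
Log2 ratio of IP to input CPM (y axis) for the 40 members (x axis, from the highest to the lowest ratio over all animals), with 1 point per animal, 12 per gene, coloured by group. Psap lies at 1.90 to 3.24, above every other member except Tfeb, which is scattered from -0.15 to 3.46; Lamp1, Atp6v1b2 and Scarb2 are below 0 in every animal, and the colours overlap for most genes.

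Between the groups, no member's IP over input ratio passed edgeR's interaction test. For vehicle over WT 0 of 40 members were called, against 0.989% of all genes (0.962% higher, 0.0273% lower), and 5 had an unadjusted p below 0.05; with DESeq2 2 were called. For MS1262 over WT 0 of 40 were called, against 1.24% of all genes (1.22% higher, 0.0219% lower), 4 had an unadjusted p below 0.05, and DESeq2 called 3. These shares of all genes are of edgeR's adjusted calls. They are no background for the unadjusted and DESeq2 counts, from which nothing is concluded about the members. The members nearest to the threshold were 3 glycan hydrolases, each higher in 5xFAD. Fuca1, the alpha-fucosidase, had log2 ratios of -0.07, 0.24, 0.08 and -0.17 in WT, 0.49, 0.57, 0.50 and 1.35 in vehicle, and 0.74, 0.65, 0.64 and 0.84 in MS1262 animals. The 5xFAD animals all lay above WT, by a log2 difference of 0.70 ± 0.18 SE for vehicle (adjusted p = 0.0816) and 0.70 ± 0.17 SE for MS1262 (adjusted p = 0.0637). Gaa had 0.15, 0.50, 0.31 and -0.15 in WT, 0.90, 0.58, 0.68 and 1.63 in vehicle, and 0.99, 1.05, 0.93 and 0.84 in MS1262 animals. Its differences were 0.74 ± 0.20 SE (adjusted p = 0.104) and 0.75 ± 0.20 SE (adjusted p = 0.0801), again without overlap. Hexa differed by 0.47 ± 0.16 SE (adjusted p = 0.244) and 0.66 ± 0.16 SE (adjusted p = 0.0637). The input levels of Fuca1 and Gaa did not pass between vehicle and WT (log2 0.02 and -0.11, edgeR adjusted p = 0.965 and 0.778).

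The IP library of vehicle animal 4, the smallest, had the highest ratio of both genes. Without that animal, Fuca1, Gaa, Cd164 and Ppt1 passed for vehicle over WT, and these 4 with Hexa for MS1262 over WT. Vehicle animal 4 is in neither group of MS1262 over WT and enters it only through the shared fit of all 24 libraries. Without WT animal 3, Hexa passed for MS1262 over WT. In the comparison of vehicle with WT, Gaa and Fuca1 were the only members higher without overlap (4.33% of all genes) and Atp6v1a the only one lower (3.23%). In MS1262 over WT, Gaa, Fuca1 and Cd164 were higher (6.57%) and Npc1, Atp6v1a and Atp6v1b2 lower (3.95%). Between MS1262 and vehicle, 0 of 40 members had an unadjusted p below 0.05, and 0 of 18300 genes passed (0% called), with 434 genes at an unadjusted p below 0.05 and 2 genes called by DESeq2. Npc2 was the only member without overlap there, higher under MS1262 (1.48% of all genes higher, 0.787% lower). The 5 members with higher expression in 5xFAD had ratios that did not pass between any groups; that of Grn differed by 0.14 ± 0.18 SE between vehicle and WT (adjusted p = 0.791). The IP level of Grn was 29.2 to 43.2 CPM in WT, 42.0 to 104.7 CPM in vehicle and 61.0 to 87.6 CPM in MS1262 animals, so that vehicle overlapped with WT by animal 3 alone.

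The authors' peaks, called in each animal on its IP against its own input, covered 31 of the 40 members in at least 1 animal. Ids, the iduronate sulfatase, Psap, Tpp1, Laptm5 and Atp6ap1 had a peak in all 12 animals, 26 members in 1 to 11 animals, and 9 in none, among them Lamp1, Npc1 and Tfeb. The strongest peak of Psap had an authors' fold enrichment of 4.62 to 12.2, with its summit a median of 3286 bases before the end of the 24973-base gene on chromosome 10. That of Laptm5 was weaker, at 1.72 to 3.33, a median of 1147 bases before the gene's end. In Atp6ap1 the strongest summit lay a median of 238 bases after the gene's start, and in Fuca1 and Hexa, 235 and 394 bases after it. Of the 16 members with a known strand and a peak in at least 8 animals, these 3 had the median summit within 500 bases of the start and 0 within 500 bases of the end. By animal, the summit was that near the start in 11 of 12 with a peak for Atp6ap1, 8 of 9 for Fuca1 and 6 of 10 for Hexa. In the remaining Hexa animals it lay 1990 to 4198 bases before the end of the 25570-base gene. Distances are along the gene with its introns. Since the protocol names no fragmentation, a summit is not read here as the place of the mark.

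Some members had peaks mostly in 5xFAD animals. Grn had a peak in 0 of 4 WT, 4 of 4 vehicle and 4 of 4 MS1262 animals, Arsb in 0, 3 and 4, Fuca1 and Cd164 in 1, 4 and 4, and Hexa, Gaa and Ppt1 in 2, 4 and 4. These 7 are the members with at least 2 more animals in each 5xFAD group than in WT, a limit set after the values were seen; they make up 22.6% of the 31 members with a peak, where 11.2% of 5632 protein-coding genes with a peak had this pattern. The opposite pattern was found in 0 members and 2.98% of those genes. With a margin of only 1 animal, 13 members had more animals in each 5xFAD group (28% of the genes) and 4 had fewer (12.5%), namely Scarb2, Gla, Atp6v0c, with 3, 2 and 1, and Atp6v0d1, with 2, 1 and 1. All these counts used the authors' q cutoff of 0.5. At a q below 0.05, Ppt1 had no peak in vehicle animal 4 and left the 7. Gla then had no peak in any animal and Atp6v0d1 none in WT animal 1, so that both left the 4. The shares of all genes were not recounted at that q. Peak calls can vary with depth and with expression, and the part of either was not tested. The WT lists had 6325 to 8456 summits, the vehicle lists 6182 to 10750 and the MS1262 lists 7138 to 10364. Vehicle animal 4, with the fewest IP reads kept by the peak caller (5477878), had 9832 summits. WT animal 2, with the most (30113001), had 8456. For Grn the input level was also higher in 5xFAD and its ratio did not pass between groups; for Fuca1 and Gaa the ratio itself was higher without overlap, short of the threshold. In the annotation Hexa overlaps Tmem202, Ppt1 overlaps Cap1, Arsb overlaps Mir5624 and Laptm5 overlaps Gm38599. Peaks were counted by position without strand, so that one in shared bases cannot be assigned to either gene. The presence of a peak was not tested between groups.

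**Figure D4:**
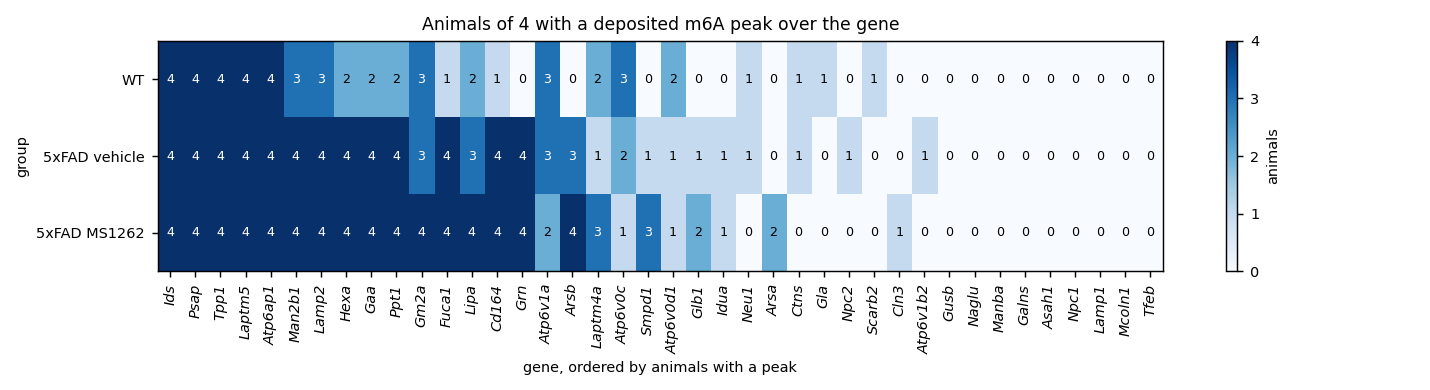
Number of animals of 4 with a deposited m6A peak overlapping the gene (colour and digit) for each member (x axis) in each group (y axis). Ids, Psap, Tpp1, Laptm5 and Atp6ap1 have a peak in all 12 animals, Grn in no WT and all 8 5xFAD animals, and 9 members in none.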

How the data were processed

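Input and m6A IP libraries of 12 hippocampi, 4 animals in each of 3 groups, were analysed. Per the submitters' processing notes, the tools were Salmon 1.4.0, STAR 2.7.6a, MACS2 2.1.2, SAMtools 1.10, Trimmomatic 0.32 and bcl2fastq 2.17.1.14, with GRCm38 (mm10). The authors deposited estimated counts per gene symbol, which were rounded before testing, and TPM, which allow for transcript length and have the same sum in each library. Counting is not stated to use strand. Per the file headers, the authors called peaks for each animal with a q cutoff of 0.5; each peak has its pileup signal, −log10 p and q values and fold enrichment as deposited. Gene positions came from RefSeq GRCm38.p6, and a peak counted from 1 shared base.

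Expression was tested on the 12 inputs and IP over input on all 24 libraries, with the animal as a block, using edgeR's quasi-likelihood F test (R 4.3.3, edgeR 4.0.16; 2-sided, TMM, minimum count 10 by group, Benjamini-Hochberg adjusted p below 0.05). Input CPM was scaled over the 12 inputs for the members and marker sums, and IP CPM over 24 libraries; log2 CPM had a prior count of 2. Input and IP of an animal carry the same number in the labels, and in 12 of 12 animals the IP correlated best with its own input. Intervals of 95% came from the fits. The scripts were tested on simulated counts. Alternatives were DESeq2 1.42.0, its size factors, no filter, limma 3.58.1 on log2(TPM + 1) or log2(TPM + 0.1), other blocks, fewer groups and each animal left out. Members and lists were chosen with earlier results of these data known. Described animal by animal were members with an adjusted p below 0.05 between groups, Tfeb, Lamp1, Psap and the 3 highest and 3 lowest ratios of IP to input among all 40, except that Fuca1, Gaa, Laptm4a, Ids, Lamp2 and Mcoln1 were chosen after their values were seen; of each other list the 3 smallest p were named, apart from some genes that are not reported here. Animals are separate mice per the labels.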

Additional observations from a re-analysis of the deposited data

Results flagged for a closer look

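Dixon's test at 95% for a sample far from the others of its group of 4 was applied to the 10 members described by animal, in 60 groups of values; chance alone marks about 5% of groups, and 4 were marked. Vehicle animal 4, whose IP library was the smallest, had a log2 IP over input ratio of 1.12 for Grn, above 0.19 to 0.29 in the other vehicle animals. The same animal had the lowest Npc1 input, 37.5 CPM against 44.7 to 46.1 CPM. Vehicle animal 1 had the lowest Psap input of its group, 112.8 CPM against 125.7 to 128.2 CPM. MS1262 animal 1 had a Scarb2 log2 IP over input ratio of -0.63, below the -0.52 to -0.51 of the other 3. No cause of these values was tested.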

How the results depend on the processing

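The count of members called for vehicle over WT, 5 in the edgeR analysis, was 10 with DESeq2 and 6 with no low-count filter. It was 2 with limma on log2(TPM + 1) or log2(TPM + 0.1), and 1 on log2(TPM + 1) with no filter. With only the 2 groups compared it was 2, and with single animals left out 2 to 5. For MS1262 over WT, 4 became 6 with DESeq2, and 5 with no low-count filter or only the 2 groups compared. On each TPM scale it became 0, and with single animals left out 2 to 5. Between groups, the count of IP over input ratios went from 0 to 2 without a filter and with DESeq2 for vehicle over WT, and to 3 in both for MS1262 over WT; single omissions gave 0 to 4 and 0 to 5. On TPM, which turned the log2 IP over input of Atp6v1b2 to 0.016 on each scale (adjusted p = 0.825, 0.827 and 0.856 on the 3 scales) and of Scarb2 to 0.10, 0.11 and 0.10 (0.151, 0.151 and 0.159), neither passed.

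Replicate numbers did not pair animals across groups, with correlations of same-numbered inputs from -0.093 to 0.054; a replicate block gave 3 members for vehicle over WT and 3 for MS1262 over WT, and a block by number beside the animal term gave 14 instead of 29 for IP over input. Of 340 values for 17 called member results, 259 kept direction and call, 75 lost the call and 6, those of Atp6v1b2 and Scarb2 on TPM, changed sign. On the TPM scales the median of all genes was itself 0.36, 0.55 and, with no filter, 0.09; relative to it Atp6v1b2 was at -0.35, -0.54 and -0.07, and Scarb2 at -0.26, -0.44 and 0.01. MS1262 against vehicle gave 0 members in every alternative run. Peaks covered 31 members, 29 at a q below 0.05 and 31 with the summit inside the gene. The cause of these differences was not tested. Tfeb, with at most 25 estimated counts in an input, had a 95% interval of -1.17 to 3.48 for vehicle over WT.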
